A study of Rattus norvegicus with 5 samples.

Results

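The cytosolic ribosomal protein genes encode the protein subunits of the ribosome that works in the cytoplasm. Members were taken by symbol, as Rpl or Rps followed by a number, Rplp0 to Rplp2, or Rpsa, on probe sets annotated with exactly 1 gene symbol. S6 kinases, pseudogenes and paralogues with a numbered suffix such as Rpl7l1 were left out, and the brightest of a gene's probe sets stood for it. This gave 45 of the 14217 genes with such a probe set, 30 of the large and 15 of the small subunit. Of them, 42 are core subunits and 3 are the paralogues Rpl3l, Rps27l and Rps4y2. In 29 ribosomal protein families the brightest probe set had several symbols. Such a family can also have a dimmer probe set of 1 symbol and so be among the 45. These families are given as a group and not by name.

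The tissue was the fat of the mesentery around the pancreas, taken from male Wistar rats that were 7 weeks old when their diets began. For 30 days, 2 rats ate a cafeteria diet in which fat gave 66% of calories, a group the labels call obese, and 3 rats ate standard chow in which fat gave 8%. Each animal's RNA was hybridised to 1 Affymetrix rat array, and the values are log2 expression levels per probe set. The labels describe the samples as independent and give no other treatment.

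The ribosome is built of a large subunit, which joins amino acids, and a small subunit, which reads the messenger RNA. Their proteins are needed in matched amounts, and their messenger RNAs are abundant in every tissue. Most of their messenger RNAs begin with a cytosine followed by a run of pyrimidines, the terminal oligopyrimidine (TOP) tract. Through this tract, mTOR signalling and the binding protein LARP1 control how strongly these messengers are translated and how stable they are. In fat, mTOR responds to insulin and amino acids.

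Some of the annotated start sites show this feature. Each line below gives 30 bases around the RefSeq start of 1 gene on assembly GRCr8, 5′ to 3′, with 12 bases before the annotated start and 18 from it onward. Capitals mark a cytosine followed by at least 4 pyrimidines that begins within 3 bases of the start. Rplp0, Rpl35, Rpl12, Rps23, Rpl4 and Rps3 are among the genes with the smallest unadjusted p of their subunit in the diet comparison. The first 4 have such a tract and the last 2 do not. Rps16 and Rps28, also among those genes, have no such tract and are not shown. Rpl19 and Rpl37a are shown for their long tracts.
Rplp0, chr12:46718373-46718402, minus strand: cgcaccgcacttCTCTCgccaggcgtcctc
Rpl35, chr3:43165904-43165933, minus strand: cccttcctctttCTCTCgaaccgggcggcc
Rpl12, chr3:36661928-36661957, plus strand: gcaacatccgtCTTTTCggctttcggttcg
Rps23, chr2:23814505-23814534, plus strand: gtccttcctgcCTCTCTTCTCTCTTTCTCT
Rpl19, chr10:83519052-83519081, plus strand: gaccagcaagctCTTTCCTTTCgctgctgc
Rpl37a, chr9:81748079-81748108, plus strand: tgcccgttgcgtCTCTTCCTCTTCgggctt
Rpl4, chr8:73566465-73566494, plus strand: gttcttccttttcctgtgggagcagccggg
Rps3, chr1:163195759-163195788, minus strand: ctttcagcggcgcgcggcagcaagatggcg

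Of the 45 members, 40 had a start sequence in the RefSeq table. A tract began exactly at the annotated start in 12 of them (30%), against 3.11% of the 27457 genes of the table. It began within 3 bases in 19 (47.5%), against 12.6% of all genes. Within 3 bases, 13 of 26 large subunit genes and 6 of 14 small subunit genes had it, and exactly at the start 10 and 2 had it. Among 59 genes of the mitochondrial ribosome, whose proteins serve a separate ribosome, it stood at the start in 2 (3.39%). A missing match says only that these letters are not at this annotated start, which can lie some bases from the one used.

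Promoters were also searched for 4 short motifs on both strands, over 250 bases before and 50 after the start. CCGGAAG, the core bound by ETS factors, was in 20% of the 40 members and 9.63% of all genes. AAGATGGC, the core of YY1 sites, was in 10% and 3.62%. GGGCGG, the GC box of Sp1, was in 65% and 36.0%. The TATA sequence TATAAA was in 15% and 15.3%, so that motif was no more frequent in members than in all genes. Other lists of the translation machinery held some of these motifs more often than the members. CCGGAAG was in 33.9% of 59 mitochondrial ribosomal genes and 50% of 46 ribosome biogenesis genes, AAGATGGC in 23.7% of the mitochondrial genes, and GGGCGG in 73.9% of 23 initiation factors. CCGGAAG ends and AAGATGGC begins with the same 3 letters, so those matches can overlap, and a match is not evidence of binding.

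The arrays were not alike in the other cells they held. Standard 1 carried acinar transcripts, which encode the digestive enzymes made by the pancreas. Of 20 acinar markers on the array, 16 were bright enough to be tested. The mean level of these 16 was 4.85 and 4.74 in cafeteria and 8.63, 4.57 and 4.61 in standard rats. Standard 1 was the highest array for all 16. Brightness was judged by the mean over the 5 arrays, so high values in standard 1 favoured a marker's inclusion. The tissue's own defining markers were bright in all 5 samples, with a mean of 11 adipocyte genes of 12.03 and 12.24 in cafeteria against 11.58, 11.72 and 11.73 in standard rats. Medians of the diet difference are therefore given with and without standard 1 for the members, their subunits and the other gene lists.

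Nearly every measured ribosomal protein transcript was somewhat lower in the fat of cafeteria-fed rats. Of the 45 genes, 41 passed the filter on dim probe sets, and 40 of these 41 had a lower mean in cafeteria than in standard rats. Among all 21729 probe sets tested, 50.9% were lower and 48.4% higher in cafeteria rats. The differences were small, with a median of -0.15 log2 units (-0.13 without standard 1), a middle range of -0.19 to -0.10 and extremes of -0.31 and 0.28. The median over all probe sets tested was -0.0036. In whole tissue, fewer cells rich in these transcripts and less of the RNA per cell cannot be told apart.

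No single gene passed the test. By limma, 0 of the 41 genes had an adjusted p under 0.05, against 0 of 21729 probe sets, a background of 0%. The smallest adjusted p among the members by limma was 0.34 and the largest 0.80. At an unadjusted p under 0.05, 2 genes were lower (Rpl4 and Rplp0) and 0 higher, where 6.62% of all probe sets were lower and 6.05% higher, so this share of the members lay near the background. Without cafeteria 1 the lower count was 30 of 41, against 9.96% of all probe sets in that fit, and without cafeteria 2 it was 1, against 8.87%. Those fits leave 1 cafeteria array, which is assumed to vary like the standard arrays. Without standard 1 or standard 2 the count was 0, against 5.06% and 4.58% of all probe sets.

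Separation of the diets was counted next. In 23 of 41 members (56.1%) the cafeteria values were both lower than all 3 standard values, against a background of 14.1% of probe sets. In 0 members were both cafeteria values higher than all 3 standard values, against 13.3%. Members share their arrays and vary together, so they are not independent of each other and this count carries no p-value. Without cafeteria 1 it was 38, against 29.3% of all probe sets in the same 4 arrays. Without cafeteria 2 it was 24, against 28.6%. Without standard 1, 2 and 3 it was 25, 25 and 28, against 18.3%, 17.9% and 20.6%.

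**Figure D1:**
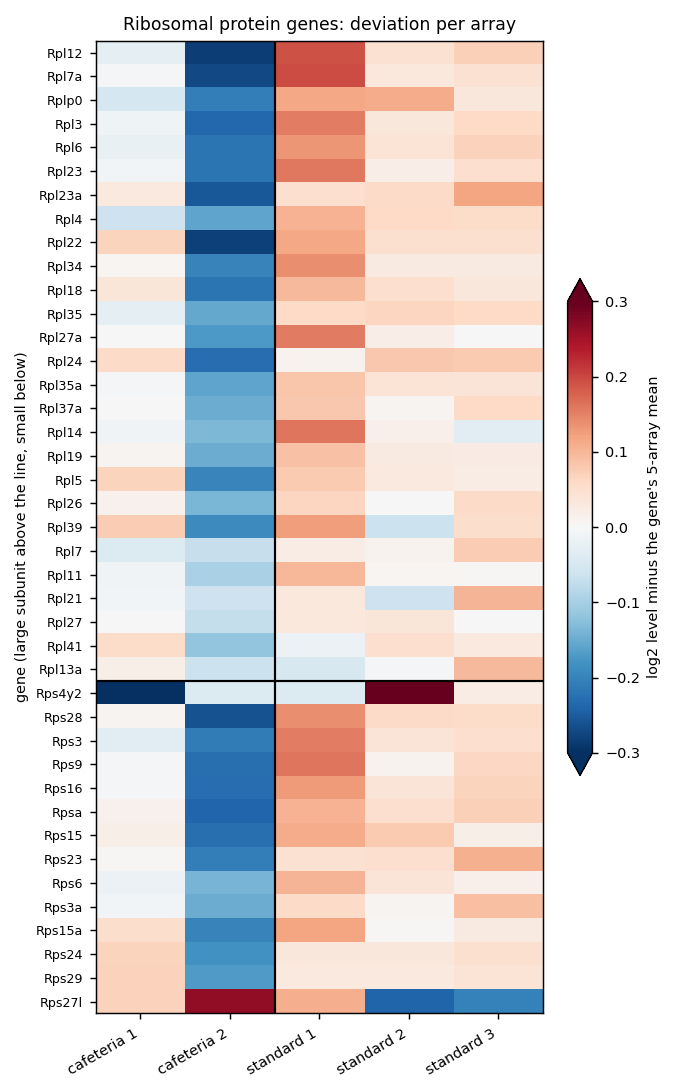
Log2 deviation of each of the 41 tested genes (down the page) from its own mean over 5 arrays, by array (across), with large and small subunit genes apart; colours beyond 0.3 in either direction are drawn at the end of the scale. Cafeteria 2 is the lowest array for 38 of 41 genes, and standard 1 the highest for 27.

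The shift came mostly from 1 of the 2 cafeteria arrays. The mean deviation of the 41 genes from their own 5-array mean was 0.0011 in cafeteria 1 and -0.17 in cafeteria 2, against 0.091, 0.034 and 0.043 in standard 1, 2 and 3. Cafeteria 2 was the lowest array for 38 of 41 genes, where it was lowest for 22.3% of all probe sets, and standard 1 was the highest for 27, where it was highest for 20.7% of all. The median gene was -0.059 from the standard mean in cafeteria 1 and -0.23 in cafeteria 2. Cafeteria 1 lay below all standard arrays for 24 genes, against 28.6% of all probe sets, and cafeteria 2 for 38, against 29.3%. Both cafeteria arrays were thus on the low side, but the gap between these 2 arrays, a median of -0.20 for cafeteria 2 minus cafeteria 1, was larger than the gap between cafeteria 1 and the standard mean.

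Markers of lymphoid and mast cells also had lower means in cafeteria rats, but by list mean cafeteria 1 lay within the range of the standard arrays. The mean level of 9 T cell markers was 5.59 and 5.005 in cafeteria and 6.09, 5.94 and 5.59 in standard rats, and all 9 had lower means in cafeteria rats. The 5 B cell and plasma cell markers averaged 5.75 and 4.49 in cafeteria and 5.79, 6.60 and 5.60 in standard rats, all 5 lower. The 8 mast cell markers averaged 7.29 and 6.51 in cafeteria and 7.93, 7.49 and 7.15 in standard rats, all 8 lower. The diets were apart, with cafeteria lower, in 3 of 9 T cell, 2 of 5 B cell and 2 of 8 mast cell markers. The share of all probe sets was 14.1%. By limma none of these markers had an adjusted p under 0.05. Cafeteria 2, the lowest array for the ribosomal proteins, was the lowest for each of these 3 lists too. The 9 macrophage markers averaged 10.05 and 9.72 in cafeteria and 10.36, 10.31 and 9.91 in standard rats, all 9 lower. Cafeteria 2 again had the lowest mean. Other cell types had other patterns. The 11 endothelial markers were all lower too, but cafeteria 1 was their lowest array, with means of 8.36 and 8.85 in cafeteria against 9.07, 8.99 and 9.11 in standard rats. Of 7 smooth muscle and pericyte markers 6 were lower, with means of 8.41 and 8.20 in cafeteria against 9.09, 7.99 and 10.10 in standard rats. The 4 mesothelial and 12 cell cycle markers parted the cafeteria arrays, with mean deviations of 0.47 and 0.36 in cafeteria 1 and -0.59 and -0.20 in cafeteria 2. For both lists cafeteria 2 had the lowest mean of the 5 arrays. The 11 adipocyte markers were all higher in cafeteria rats, and cafeteria 2 was the highest array for 10 of them. Of 7 fibroblast markers, 6 were higher and 1 lower. Separation of the diets was not particular to the lymphoid and mast cell lists. Cafeteria was lower, with the diets apart, in 5 of 11 endothelial, 1 of 7 smooth muscle and pericyte and 0 of 9 macrophage markers. It was higher, with the diets apart, in 9 of 11 adipocyte and 3 of 7 fibroblast markers, against 13.3% of all probe sets. The 2 erythroid markers averaged 10.18 and 10.84 in cafeteria and 10.23, 10.21 and 10.24 in standard rats. The part of these cell types in the ribosomal protein differences was not tested.

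Among proteins of the large subunit, all 27 tested genes had lower means in cafeteria rats, with a median difference of -0.14 (-0.12 without standard 1). It was -0.23 without cafeteria 1 and -0.052 without cafeteria 2. Rpl4, a core protein of the exit tunnel, read 12.16 and 12.06 in cafeteria rats against 12.33, 12.28 and 12.28 in standard rats. Both cafeteria arrays were below all standard arrays, and the standard arrays lay close together. The difference was -0.18 ± 0.057 (SE), 1.14-fold lower in cafeteria rats, with an adjusted p of 0.34 by limma and an exact permutation p of 0.1. With 2 arrays against 3, 0.1 is the smallest p an exact permutation test can give.

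Rplp0 is the scaffold of the stalk, the flexible arm of the large subunit that recruits translation factors. It read 12.39 and 12.24 in cafeteria rats against 12.56, 12.55 and 12.48 in standard rats. The diets did not overlap. The difference of -0.22 ± 0.071 (SE) had an adjusted p of 0.35 by limma. Its stalk partners Rplp1 and Rplp2 had no probe set of their own symbol alone.

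Rpl12, which sits at the base of the stalk, had the lowest difference of the tested large subunit genes. It read 12.66 and 12.40 in cafeteria rats against 12.88, 12.73 and 12.76 in standard rats. The groups were apart, with cafeteria 2 well below cafeteria 1. The difference was -0.26 ± 0.10 (SE), with an adjusted p of 0.41 by limma. Rpl35, a protein near the exit of the tunnel, read 12.69 and 12.57 in cafeteria rats against 12.78, 12.78 and 12.78 in standard rats. Its standard arrays were nearly equal and both cafeteria arrays lay below them. Its difference was -0.15 ± 0.060 (SE), with an adjusted p of 0.41 by limma.

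Rpl5 and Rpl11 carry the 5S RNA into the large subunit and, when free, bind the p53 regulator MDM2. Rpl11 read 12.47 and 12.38 in cafeteria rats against 12.58, 12.48 and 12.48 in standard rats. Cafeteria 1 lay just below the lower standard arrays, and the difference was -0.091 ± 0.062 (SE). Rpl5 read 13.01 and 12.74 in cafeteria rats against 13.02, 12.97 and 12.96 in standard rats. Here cafeteria 1 lay among the standard arrays and cafeteria 2 alone was apart. The difference of Rpl5 was -0.11 ± 0.094 (SE), and without cafeteria 2 it was 0.022.

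Rpl13a and Rpl27 are widely used as reference genes in quantitative PCR. Rpl13a, which in humans also silences a set of inflammatory messengers when released from the ribosome, read 11.89 and 11.80 in cafeteria rats against 11.82, 11.86 and 11.97 in standard rats. The diets overlapped, and the difference of -0.039 ± 0.069 (SE) was the smallest among the tested large subunit genes. Rpl27 read 12.34 and 12.27 in cafeteria rats against 12.37, 12.37 and 12.34 in standard rats. Cafeteria 1 was level with the lowest standard array, and the difference was -0.057 ± 0.052 (SE). Neither difference passed the test, with adjusted p-values of 0.80 and 0.61 by limma.

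**Figure D2:**
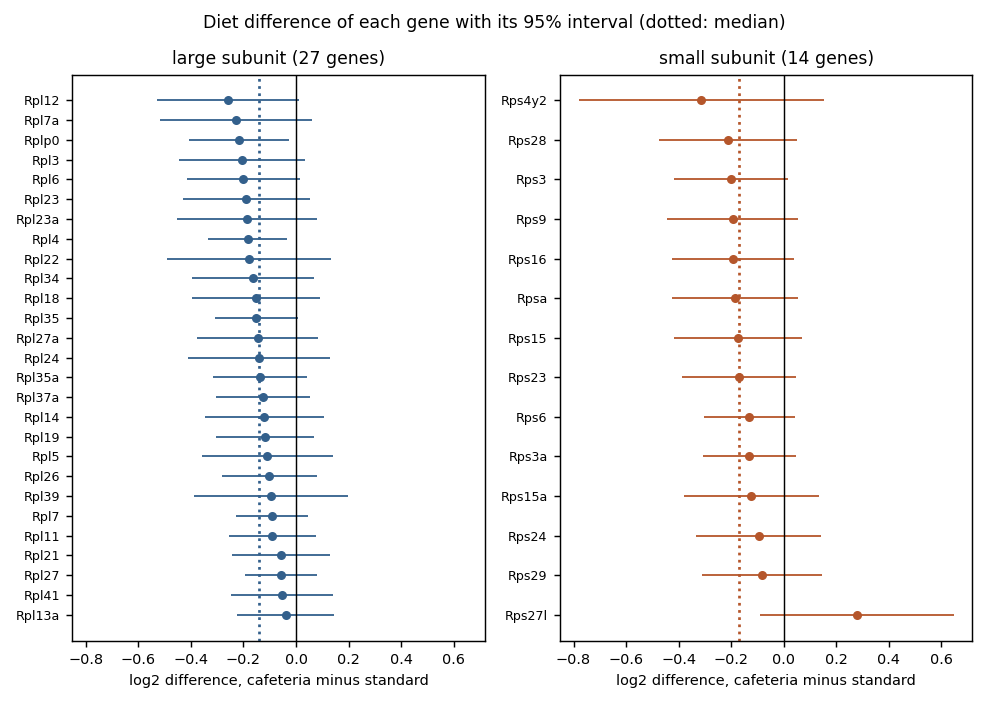
Diet difference (log2, cafeteria minus standard) of each tested ribosomal protein gene with its 95% interval from limma, large subunit and small subunit genes apart; the line at 0 means no difference and the dotted lines mark each subunit's median. Points lie left of 0 for 40 of the 41 genes, and the intervals of Rpl4 and Rplp0 do not reach 0.

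Among proteins of the small subunit, 13 of 14 tested genes had lower means in cafeteria rats, with a median difference of -0.17 (-0.15 without standard 1). It was -0.26 without cafeteria 1 and -0.063 without cafeteria 2. Rps3 lies at the entry of the messenger RNA channel and is also known to take part in DNA repair. It read 12.60 and 12.42 in cafeteria rats against 12.78, 12.67 and 12.68 in standard rats. The diets were apart. The difference of -0.20 ± 0.081 (SE) had an adjusted p of 0.42 by limma, the lowest of the small subunit.

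Rps16, which contacts the tRNAs at the decoding site, read 12.88 and 12.65 in cafeteria rats against 13.01, 12.92 and 12.95 in standard rats. Rps28, a small protein near the messenger exit, read 12.47 and 12.20 in cafeteria rats against 12.60, 12.52 and 12.52 in standard rats. Rps23, at the decoding centre, read 13.16 and 12.95 in cafeteria rats against 13.20, 13.21 and 13.26 in standard rats. In all 3 genes cafeteria 1 lay a little below the standard arrays and cafeteria 2 far below them. The differences were -0.19 ± 0.087, -0.21 ± 0.099 and -0.17 ± 0.082 (SE), with adjusted p-values of 0.46, 0.47 and 0.47 by limma.

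Rps6, the protein phosphorylated by S6 kinase downstream of mTOR, read 13.18 and 13.06 in cafeteria rats against 13.30, 13.24 and 13.22 in standard rats. The diets were apart by a small margin, and the difference was -0.13 ± 0.065 (SE). Rpsa, a small subunit protein also known as the laminin receptor precursor, read 12.21 and 11.96 in cafeteria rats against 12.30, 12.25 and 12.27 in standard rats. Cafeteria 2 was far below and cafeteria 1 just below the standard arrays, a difference of -0.19 ± 0.090 (SE). Other probe sets of Rpsa, of types that can cross-hybridise, gave differences of -0.21 and 0.027.

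Rps29, also used as a PCR reference gene, read 13.64 and 13.40 in cafeteria rats against 13.60, 13.60 and 13.61 in standard rats. Cafeteria 1 was above and cafeteria 2 below the standard arrays, which were nearly equal. The difference was -0.083 ± 0.086 (SE), and without cafeteria 2 it was 0.037. The other members fixed by role, Rpl32, Rps18, Rps19 and Rps27a, were not on a probe set of 1 symbol and are not given.

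The large and small subunits had similar values, and their difference has no test here. The median difference of the large subunit minus that of the small subunit was 0.029 log2 units. On single arrays, the mean deviation of the large subunit minus that of the small was 0.012 and -0.016 in cafeteria 1 and 2, against 0.0024, -0.013 and 0.014 in standard 1, 2 and 3. Cafeteria 1 lay within the range of the standard arrays and cafeteria 2 just below it, and the diets overlapped. This order depended on the dim paralogues Rps27l and Rps4y2, which are among the 14 small subunit genes. In core genes at 10 or more, mean deviations in cafeteria 1 and 2 were 0.0026 and -0.17 for 26 large subunit genes. They were 0.014 and -0.20 for 12 small subunit genes. In standard rats they were 0.090, 0.033 and 0.048 for the large and 0.099, 0.037 and 0.054 for the small subunit. With these genes the large subunit lay above the small in cafeteria 2 and below it in every other array. The diets were apart, with cafeteria lower, in 15 of 27 large (55.6%) and 8 of 14 small subunit genes (57.1%), against 14.1% of all probe sets.

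The paralogues kept by the rule are described apart from the core genes. Rps27l, a p53-induced relative of Rps27, read 6.94 and 7.13 in cafeteria rats against 6.97, 6.63 and 6.66 in standard rats. Cafeteria 2 was the highest array and cafeteria 1 lay just under standard 1. It was the only tested member with a higher mean in cafeteria rats, a difference of 0.28 ± 0.14 (SE) with an adjusted p of 0.48 by limma. Rps4y2, a relative of Rps4, was chosen after its values were seen, as the member with the lowest difference. It read 5.69 and 5.99 in cafeteria rats against 5.99, 6.42 and 6.05 in standard rats, a difference of -0.31 ± 0.18 (SE), and the diets overlapped.

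Of the 4 members that did not pass the filter, Rpl3l, a muscle-specific relative of Rpl3, read 3.86 and 3.95 in cafeteria rats against 3.67, 3.86 and 3.86 in standard rats. The others were Rpl28, Rpl30 and Rps13, whose single-symbol probe sets had means of 4.01, 4.13 and 4.26 over the 5 arrays. These levels are those of dim probe sets. They do not measure the genes, since each of the 3 families also has a bright probe set with several symbols.

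Most members were measured on very bright probe sets, so they were set beside others as bright. Of the 45 members, 37 had a mean above the 99th percentile of all probe sets, which depends on the probes as well as on the RNA. At a mean of 12 or more, all 34 members had lower means in cafeteria rats, with a median difference of -0.16 (-0.14 without standard 1). In 23 of these 34 members (67.6%) the diets were apart with cafeteria lower, and in 0 with cafeteria higher. Outside the ribosomal protein families, 152 probe sets were that bright. Their median difference was 0.060 (0.057 without standard 1), with 59 lower and 93 higher. Of the 152, 24 (15.8%) were apart with cafeteria lower and 42 (27.6%) with cafeteria higher, against 14.1% and 13.3% of all probe sets. By limma 11 of the 152 (7.24%) had an unadjusted p under 0.05 with cafeteria lower, and 17 with cafeteria higher. Most of the other probe sets of that brightness thus lay on the cafeteria-higher side.

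**Figure D3:**
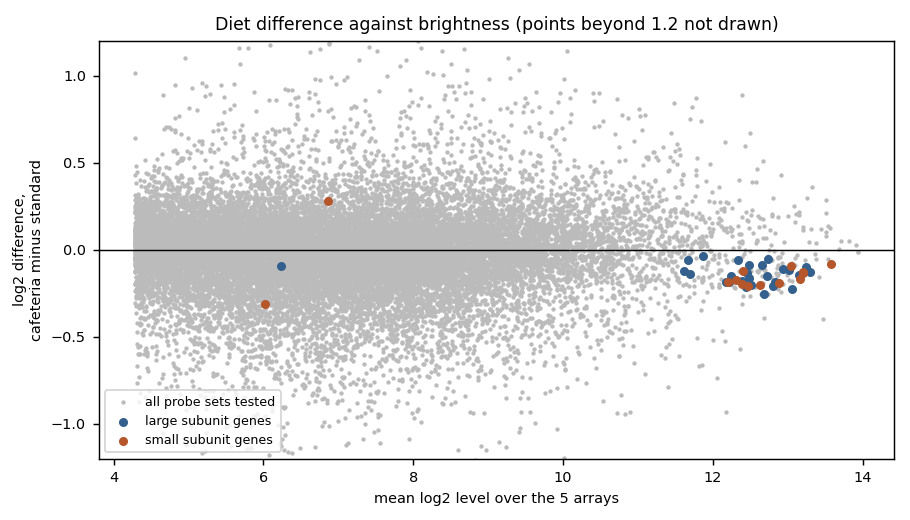
Diet difference (log2, cafeteria minus standard) against mean level over 5 arrays (log2) of the tested probe sets in grey, with large and small subunit genes in colour; 106 probe sets lie beyond 1.2 in either direction and are not drawn. At a mean of 12 or more, all 34 ribosomal protein genes lie below 0, while 93 of the 152 other probe sets lie above it.

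The 29 ribosomal protein families whose brightest probe set had several symbols were low in cafeteria rats too. In them, 28 were lower and 1 higher in cafeteria rats, with a median difference of -0.12 (-0.093 without standard 1). The median was -0.032 for cafeteria 1 and -0.21 for cafeteria 2 against the standard mean. Diets were apart, with cafeteria lower, in 10 of 29 (34.5%), against 14.1% of all probe sets. These probe sets may read related genes and pseudogenes at once. Second probe sets of members gave differences of -0.014 for Rpl3, -0.27 for Rpl7, -0.14 for Rps24 and, on a dim probe set, 0.010 for Rpl14. That of Rpl7 was 0.047 without standard 1.

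Members with and without the pyrimidine tract had similar diet differences, given as values without a test. Of core genes tested and found in the table, the 11 with a tract exactly at the annotated start had a median difference of -0.14, and the 24 without one -0.16. With the tract within 3 bases, the medians were -0.15 in 17 genes and -0.15 in 18 genes. The exact-tract genes ranged between -0.22 and -0.095, and the others between -0.26 and -0.039.

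Rack1, a small subunit protein with a symbol outside the rule that binds signalling kinases, read 12.11 and 11.81 in cafeteria rats against 12.22, 12.13 and 12.13 in standard rats. Its pattern was that of the members, with cafeteria 2 lowest. The difference was -0.20 ± 0.11 (SE), with an adjusted p of 0.49 by limma.

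The list of TOP-type translation factors holds elongation factors and other genes, such as Nap1l1, that were chosen as having messengers with the same tract. Of 15 tested, 13 were lower and 2 higher in cafeteria rats, with a median difference of -0.16 with and without standard 1. The median was -0.069 for cafeteria 1 and -0.24 for cafeteria 2 against the standard mean. The diets were apart, with cafeteria lower, in 6 of 15 (40%), against 14.1% of all probe sets. Naca, which binds nascent chains at the ribosome exit, read 11.85 and 11.69 in cafeteria rats against 12.04, 12.03 and 11.97 in standard rats. Eef1b2, the exchange factor of elongation factor 1, read 11.74 and 11.67 in cafeteria rats against 11.84, 11.90 and 11.84 in standard rats. In both genes the diets were apart. Nap1l1, a histone chaperone, was higher, with 10.82 and 10.90 in cafeteria rats against 10.61, 10.62 and 10.67 in standard rats. By limma 0 of the 15 passed the test, with 3 lower and 1 higher at an unadjusted p under 0.05, against 6.62% and 6.05% of all probe sets. Of 12 of these genes with a RefSeq start, 3 had the tract within 3 bases of the start and 0 exactly at it.

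The genes that build ribosomes lay on both sides of 0. Of 50 ribosome biogenesis genes, 32 were lower and 18 higher in cafeteria rats, with a median difference of -0.026 (-0.011 without standard 1). Emg1, which modifies the small subunit RNA, read 6.51 and 6.50 in cafeteria rats against 6.69, 6.80 and 6.87 in standard rats. Nmd3, which exports the large subunit from the nucleus, read 8.59 and 8.51 in cafeteria rats against 8.34, 8.19 and 8.11 in standard rats. These lay in opposite directions, each with the diets apart. Over the 50 genes, the diets were apart with cafeteria lower in 5 (10%), against 14.1% of all probe sets. With cafeteria higher they were apart in 3 (6%), against 13.3%. Of 19 RNA polymerase I genes, which transcribe the ribosomal RNA, 12 were lower and 7 higher, with a median of -0.020 that was 0.0043 without standard 1. The subunit Polr1c had a difference of -0.28 and the factor Taf1d one of -0.29.

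Initiation factors other than those of the TOP type were split, with 12 lower and 11 higher of 23 and a median of -0.0066 that was 0.035 without standard 1. Eif4g2, a relative of the scaffold eIF4G, had a difference of 0.21, and Eif2b4, a subunit of the exchange factor of eIF2, one of -0.20. Of 24 genes of mTOR signalling and TOP control, 11 were lower and 13 higher, with a median of 0.027 that was -0.013 without standard 1. Deptor, an inhibitor of mTOR, read 11.42 and 11.53 in cafeteria rats against 10.97, 11.22 and 11.25 in standard rats. Eif4ebp1, which blocks cap-dependent initiation, read 10.20 and 10.48 in cafeteria rats against 10.001, 9.90 and 10.15 in standard rats. Rictor, a scaffold of the second mTOR complex, read 8.11 and 7.71 in cafeteria rats against 8.34, 8.19 and 8.44 in standard rats. In these 3 genes the diets were apart but none had an adjusted p under 0.05 by limma. Over the 24 genes, the diets were apart with cafeteria lower in 2 (8.33%), against 14.1% of all probe sets. With cafeteria higher they were apart in 5 (20.8%), against 13.3%.

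The mitochondrial ribosomal proteins were mostly higher in cafeteria rats. Of 73 tested, 18 were lower and 54 higher in cafeteria rats, with a median difference of 0.061 (0.049 without standard 1). The median was 0.023 for cafeteria 1 and 0.091 for cafeteria 2 against the standard mean. The diets were apart, with cafeteria higher, in 14 of 73 (19.2%), against 13.3% of all probe sets. Their mean deviation was highest in cafeteria 2, at 0.088, the array on which the cytosolic genes were lowest at -0.17.

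**Figure D4:**
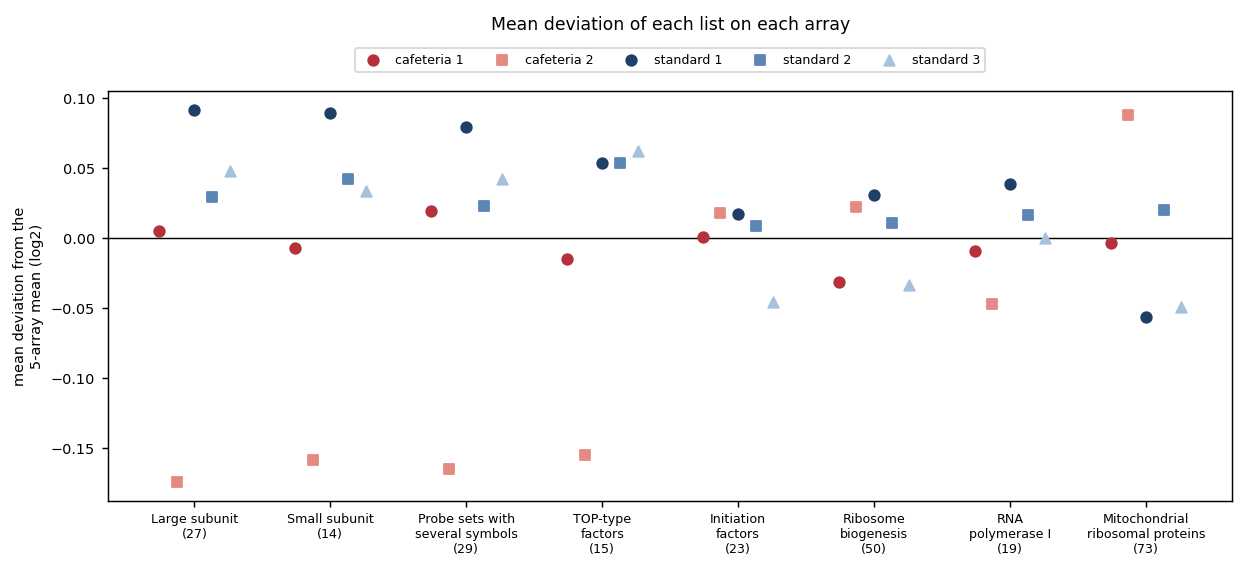
Mean log2 deviation from the 5-array mean of each gene list (across), 1 point per array, with the number of probe sets in brackets. For both subunits, the probe sets with several symbols and the TOP-type factors, cafeteria 2 lies at -0.15 or lower; for the mitochondrial ribosomal proteins it is the highest array at 0.088.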

How the data were processed

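Fat of 5 rats was measured on Affymetrix rat genome arrays. The authors deposited log2 values, 1 per probe set and array, made with RMA and affy per the submitters' processing notes, which give no versions. RMA makes array distributions alike and can hide a shift common to most transcripts. The sources used here name no array batches. From 31099 probe sets, 57 controls and those at or under the 30th percentile of mean level (log2 4.28) were left out, leaving 21729. A linear model per probe set (limma 3.58.1, R 4.3.3, functions lmFit and eBayes) gave the two-sided test of cafeteria minus standard, with Benjamini-Hochberg adjustment over all of them, called at 0.05. Residual degrees of freedom were 3 and the prior was worth 1.50. P-values measure only the spread between these samples.

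Symbols came from GEO's platform annotation, where 20826 probe sets have 1 symbol, 436 have several and 9780 have none. Gene identifiers of 43 of 45 members were in the RefSeq table, and 0 symbols changed. The ending l with a digit was read as a paralogue suffix, since a literal reading removes Rpl3 to Rpl9. Named genes were the 4 with the smallest p of each subunit, genes fixed by role, and up to 3 per other list. The members and lists were chosen with earlier results of these data known. The procedure was tested on simulated data. Figures used matplotlib 3.10.9 in Python 3.11.15.

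Groups follow the labelled diet. Replicate numbers were not used as pairs, since the labels describe the samples as independent. Deviations from group means correlated at 0.079 for number 1 and -0.037 for number 2. With 2 cafeteria arrays these deviations mirror each other, so the correlations cannot decide whether the numbers pair samples. Identical values made up 11.7% to 14.7% of probe sets between arrays, and no pair was merged. Alternatives were other filters, normalizations, variance models, array weights, a replicate block, probe set choices, readings of the rule, and leaving out each array.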

Additional observations from a re-analysis of the deposited data

How the results depend on the processing

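The number of arrays, 2 against 3, limits precision, and bright RMA values can understate differences. Of the alternatives run, none gave a probe set with an adjusted p under 0.05. The count of members lower at an unadjusted p under 0.05, 2 as reported, was 8 after cyclic loess, 1 with the ending of the rule read literally, and 0 to 30 when 1 array was left out. The count of members whose diets did not overlap, 23 as reported, was 24 to 38 when 1 array was left out, highest without cafeteria 1. Leaving out an array can only keep or raise that count, so this range is no sign of stability, and the share of all probe sets was 17.9% to 29.3%. Over the same omissions the median difference ranged between -0.23 and -0.059 for all members, between -0.23 and -0.052 for the large subunit and between -0.26 and -0.063 for the small subunit, nearest 0 without cafeteria 2. The large minus small difference of 0.029 was 0.0066 after quantile normalization, 0.0081 with the mean of all probe sets of a gene, -0.0054 with probe sets of several symbols, and 0.011 to 0.032 when 1 array was left out. When 1 array was left out, Rpl13a ranged between -0.080 (without cafeteria 1) and 0.0024 (without standard 3; 0.0019 without cafeteria 2), Rpl5 between -0.24 and 0.022, and Rps29 between -0.20 and 0.037, the last 2 positive without cafeteria 2. The cause was not tested beyond the array omitted. The inclusion of probe sets with several symbols and the limit to members at a level of 10 or more were chosen after seeing the data.

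With a replicate block on these numbers, which were not taken as pairs, the median difference was -0.15 and that of Rpl13a was 0.0024. The count of members lower at an unadjusted p under 0.05 by limma was 1. No probe set was called with the block or without it.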
